A study of Mus musculus with 7 samples.

Results

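The cells described here were antigen-specific T cells from spleens of C57bl/6 mice taken 7 days after infection with lymphocytic choriomeningitis virus, strain Armstrong, which causes an acute infection that the animals clear. All of them came from a sort for CD44high cells that bound the GP66:I-Ab tetramer, a reagent that marks T cells specific for a viral glycoprotein peptide. They were chosen by their transcripts: a cell entered when it held at least 1 unique molecular identifier (UMI, the count of 1 captured mRNA molecule) of Ccr7 and no UMI of Cxcr5 or Cxcr6. In all, 831 of the 5751 day 7 GP66+ cells met this rule, out of 16427 cells in the 7 libraries of the series. The wild type library gave 393 such cells. The library from mice of genotype Ox40-Cre+ Thpok wt/wt RosaYFP+, called Thpok-sufficient here, gave 375. The library from Ox40-Cre+ Thpok fl/fl RosaYFP+ mice, called Thpok-deleted here, gave 63. In this design Cre recombinase is driven by Ox40, a gene that T cells switch on after activation, so the allele was lost in cells that had already become CD4 T cells. Each group was 1 library, and the labels do not say how many animals it held or which exons the floxed allele removes. The wild type library carried neither Cre nor the YFP reporter, and a gate on CD4 is named only for that library.

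Thpok, encoded by Zbtb7b, is a zinc finger transcription factor that T cells need to become and stay CD4 helper cells. It represses genes of the CD8 and cytotoxic program, in part by opposing Runx3, the factor that drives that program. Ccr7 is the chemokine receptor that leads T cells into the T cell zones of lymphoid organs. During a viral infection it is kept by the responding CD4 cells thought to include precursors of central memory cells, while Cxcr5 marks follicular helper (Tfh) cells and Cxcr6 marks T helper 1 (Th1) effectors.

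Ccr7, Cxcr5 and Cxcr6 set the gate, so their levels are a description only. Ccr7 stood at 246 CPM (UMIs per 1000000 UMIs of the gated cells, scaled between libraries) in Thpok-deleted, 324 in Thpok-sufficient and 307 in wild type gated cells. The gate took 4.73% of Thpok-deleted cells (95% exact binomial interval 3.65 to 6.01), against 17.4% (15.8 to 19.1) of Thpok-sufficient and 17.4% (15.8 to 19.0) of wild type cells. These intervals cover counting error only. With every cell thinned to 2000 UMIs, which left out 27, 32 and 55 shallower cells of the Thpok-deleted, Thpok-sufficient and wild type libraries, the shares were 3.75%, 10.5% and 12.9%. Cells with Cxcr6 and neither of the other receptors made up 49.6% of Thpok-deleted, 13.7% of Thpok-sufficient and 14.2% of wild type cells. Cells with Cxcr5 alone made up 1.28%, 16.8% and 20.7%, or 17, 362 and 467 cells. Gated cells with exactly 1 Ccr7 UMI, the lowest value that enters, numbered 43, 235 and 204 in the Thpok-deleted, Thpok-sufficient and wild type libraries. Cells with no UMI of any of the 3 receptors, just outside the gate, numbered 541, 912 and 768. A Cxcr6 UMI was found in 28 of 107 Thpok-deleted cells with Ccr7, 25 of 561 Thpok-sufficient and 52 of 652 wild type ones. With thinned cells the Cxcr6-gated shares fell to 28.2%, 9.36% and 9.47%, so a cell without a Cxcr6 UMI may still express it. How many such cells entered the Ccr7 gate was not tested.

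The label memory-precursor-like was checked against markers other than Ccr7. In the Thpok-sufficient and wild type libraries the gated cells stood only slightly above the other cells of their own library for Tcf7 (1.24 and 1.21 times, in CPM of the total), Lef1 (1.32 and 1.25 times) and Bcl2 (both 1.28 times). Il7r, which encodes the interleukin 7 receptor that memory precursors keep, was near the floor, at 7.82 and 8.36 CPM. In the Thpok-deleted library the contrast with the other cells was wider: 4.39 times for Tcf7 and 2.34 times for Il7r. Beyond Ccr7 few of the markers set these cells apart, and the population is called Ccr7-gated cells below. The T cell gene Cd3d was measured at 972, 1080 and 1140 CPM in Thpok-deleted, Thpok-sufficient and wild type gated cells.

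The gated cells held 412315 UMIs in the Thpok-deleted, 2046636 in the Thpok-sufficient and 2393170 in the wild type library. Their median depth was 5788, 5068 and 5433 UMIs per cell, and the median mitochondrial share was 3.91%, 4.10% and 3.37%. The 3 libraries shared 1 to 3 cell barcodes per pair. The wild type library stood apart from the Thpok-sufficient one: 113 genes (1.29% of 8760) were at least 2-fold lower in its gated cells and 9 (0.103%) at least 2-fold higher, a difference between libraries whose cause was not tested. Genes such as Fau (54.5 against 4437 CPM) and Klf2 (40.7 against 1093 CPM) were among the lower ones, with Thpok-deleted gated cells at 3987 and 600 CPM. For that reason a gene was counted as higher or lower only when it differed from both libraries with intact Thpok.

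Zbtb7b itself, at chr3:89377644-89394776 on the minus strand (GRCm38), was counted at 0 UMIs in Thpok-deleted gated cells, 67 in Thpok-sufficient and 51 in wild type gated cells. These were 34.1 CPM (95% Poisson interval 26.4 to 43.3) and 20.2 CPM (15.0 to 26.5), so that the Thpok-deleted value was at least 2.73-fold lower, with 3 counts per library as the floor for a count of 0. All 3 libraries fell on the side their labels give, though whether the counted 3′ end lies in the deleted part is not given.

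**Figure D1:**
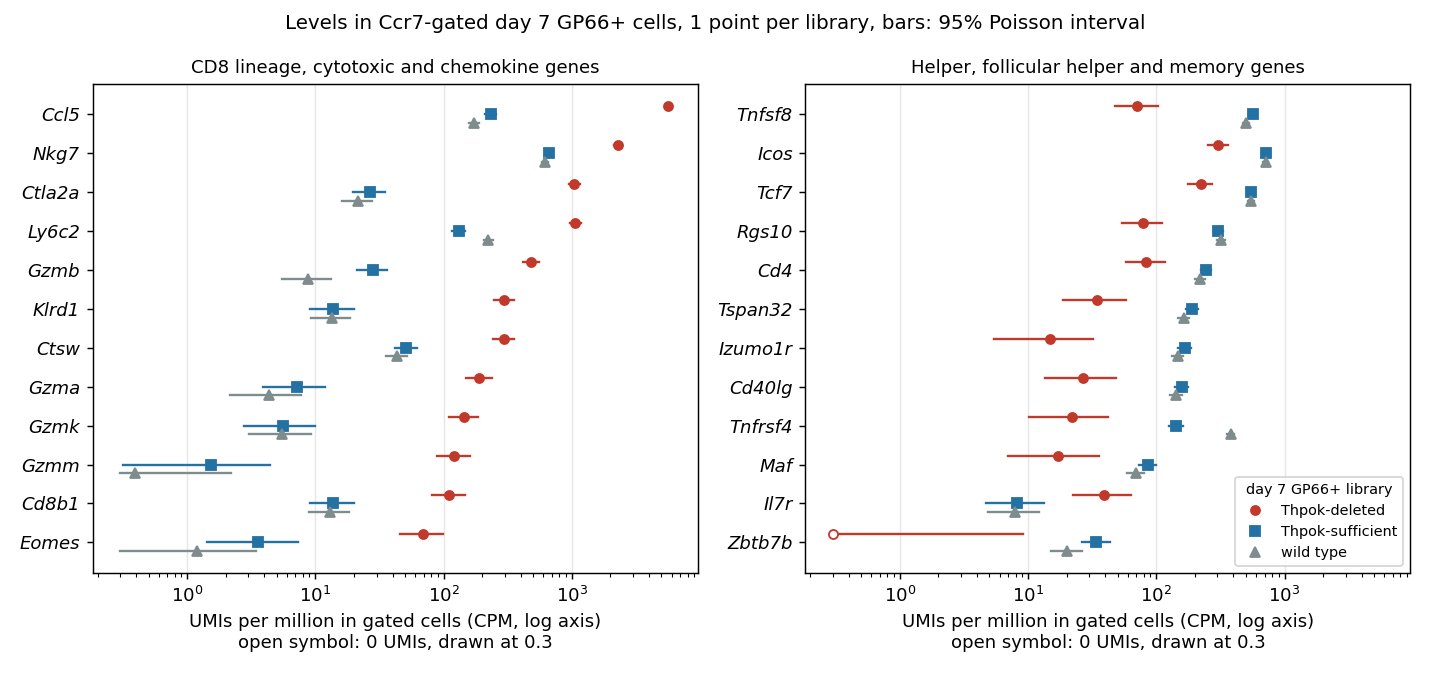
Levels of 24 genes in Ccr7-gated cells, in CPM on a log axis, 1 point per library with its 95% Poisson interval, which covers counting error only. The Thpok-deleted points of the 12 genes in the left panel lie above both libraries with intact Thpok, and those of the right panel lie below both except Il7r; Zbtb7b has 0 UMIs in the Thpok-deleted library.

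The comparison asks whether Thpok-deleted T cells that enter this gate at day 7 hold a helper transcriptome. They carried CD8 lineage, cytotoxic and chemokine transcripts at many times the level in either intact library. Helper and Tfh transcripts were lower, and the memory genes as a group did not move one way. Compared with both intact libraries on CPM with 20 added, 59 of the 8760 genes tested (0.674%) were at least 2-fold higher in Thpok-deleted gated cells and 49 (0.559%) at least 2-fold lower. No test stands behind that count, since the Thpok-deleted arm is 1 library. The edgeR quasi-likelihood test of Thpok-deleted against the pair of intact libraries, with 1 residual degree of freedom, called 0 genes higher and 0 lower at a Benjamini-Hochberg adjusted p of 0.05. Its unadjusted p was under 0.05 for 330 genes in the higher and 443 in the lower direction, and its lowest adjusted p was 0.051. DESeq2 on the same sums called 20 higher and 3 lower, and edgeR on cells thinned to 2000 UMIs called 28 in each direction. The 2-fold rule gave 73 and 79 genes without the wild type library and 188 and 88 without the Thpok-sufficient one. Individual values below are therefore differences between libraries. Each is given with an approximate standard error (SE), the size of the log2 difference divided by the square root of edgeR's F statistic. It rests on a spread that edgeR moderates across genes, not on the gene's own intact pair alone.

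**Figure D2:**
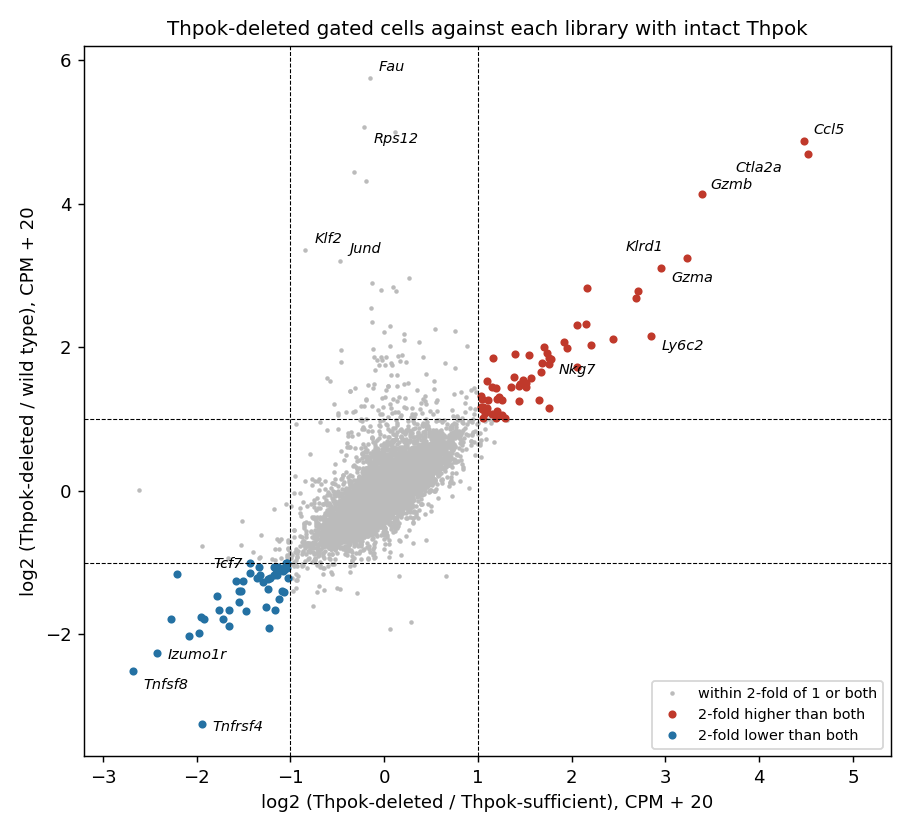
Each point is 1 of the 8760 genes tested, with the log2 ratio of Thpok-deleted to Thpok-sufficient gated cells on the x axis and to wild type gated cells on the y axis, both with 20 CPM added. The 59 red genes are past 2-fold in both, the 49 blue genes are under it in both, and Fau, Rps12, Klf2 and Jund lie high on the y axis alone, where the wild type library stands apart.

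Cytotoxic effector genes were the leading group. Of the 20 genes listed as CD8 lineage and cytotoxic, 16 had enough counts to be tested, and 14 of these were past the 2-fold rule upward and 0 downward, against the 0.674% of all genes. Some members, such as Klrg1, could reach the count filter only through the Thpok-deleted library, so the list's count is a description. The median log2 difference over the 16 was 4.29 (2.44 to 4.44 over the alternatives), beside -0.03 over all genes tested. All 16 lay above both intact libraries by any size, as did 37.3% of all genes. None was called by edgeR, as for all genes.

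The promoters of 3 of these genes and of Tnfsf8, the first gene of the lower set by the 2-fold rule, are printed because the granzymes and Nkg7 are higher together while Tnfsf8 is lower. Each is the 250 bases before the annotated start, 5′ to 3′ on the gene's strand, from RefSeq on GRCm38.p6. Capitals mark the Runx core motif TGTGGT or its reverse complement ACCACA. The windows are chr14:56262335-56262584 (minus strand) for Gzmb, chr13:113100982-113101231 (minus) for Gzma, chr7:43436888-43437137 (plus) for Nkg7 and chr4:63861285-63861534 (minus) for Tnfsf8.
Gzmb: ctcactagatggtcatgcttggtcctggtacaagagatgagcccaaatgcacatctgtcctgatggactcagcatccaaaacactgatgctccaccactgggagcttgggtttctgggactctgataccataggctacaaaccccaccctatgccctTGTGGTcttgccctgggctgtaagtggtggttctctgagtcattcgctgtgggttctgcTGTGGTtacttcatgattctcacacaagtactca
Gzma: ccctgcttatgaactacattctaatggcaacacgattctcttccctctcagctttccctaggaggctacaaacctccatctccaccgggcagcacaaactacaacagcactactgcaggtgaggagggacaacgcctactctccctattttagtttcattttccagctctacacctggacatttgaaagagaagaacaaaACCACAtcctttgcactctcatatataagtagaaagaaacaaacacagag
Nkg7: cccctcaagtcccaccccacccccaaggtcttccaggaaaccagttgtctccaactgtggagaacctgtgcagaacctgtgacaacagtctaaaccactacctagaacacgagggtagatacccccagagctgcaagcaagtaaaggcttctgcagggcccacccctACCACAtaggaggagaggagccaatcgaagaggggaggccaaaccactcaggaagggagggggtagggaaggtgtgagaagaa
Tnfsf8: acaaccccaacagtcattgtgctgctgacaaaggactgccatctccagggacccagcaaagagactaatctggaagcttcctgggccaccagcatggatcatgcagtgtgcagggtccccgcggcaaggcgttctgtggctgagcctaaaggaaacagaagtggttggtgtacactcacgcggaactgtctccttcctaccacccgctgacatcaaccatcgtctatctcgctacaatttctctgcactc
Gzmb held 2 copies, 93 and 34 bases before its start, Gzma and Nkg7 held 1 each, and Tnfsf8 held 0. In windows of 300 bases, with 50 bases after the start added, 12 of the 40 genes of the higher set with a window (30.0%) held the motif on either strand. For the lower set this was 7 of 33 (21.2%), for all tested genes with a window 1017 of 6741 (15.1%), and for all windows 5506 of 32851 (16.8%). A match in letters is not evidence of a bound site.

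Gzmb encodes granzyme B, the serine protease that killer lymphocytes deliver into target cells. Gated cells held 482 CPM of it in Thpok-deleted (196 UMIs in 63 cells), 28.0 CPM in Thpok-sufficient and 8.70 CPM in wild type. The Thpok-deleted value lay outside the counting intervals of both others, and the intact libraries also differed from each other. The log2 difference was 4.75 ± 0.62 (SE; edgeR adjusted p = 0.292). Gzma, which encodes granzyme A, was measured at 189, 7.13 and 4.35 CPM (5.05 ± 0.34, edgeR adjusted p = 0.134). Gzmk, for granzyme K, stood at 145, 5.60 and 5.53 CPM (4.69 ± 0.27, edgeR adjusted p = 0.097). The order Thpok-deleted far above Thpok-sufficient and wild type was the same in all 3 granzymes. Gzmm, a further granzyme, had 49 UMIs in Thpok-deleted gated cells against 3 and 1 in the other libraries.

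Receptors that natural killer (NK) cells and CD8 effectors share were also higher. Klrd1, which encodes CD94, the partner chain of NKG2 receptors, was at 298 CPM in Thpok-deleted, 13.8 in Thpok-sufficient and 13.4 in wild type gated cells (log2 difference 4.45 ± 0.20, edgeR adjusted p = 0.051). Klrc1, for the NKG2A chain that pairs with CD94, was at 216, 23.4 and 34.8 CPM. Klrg1, a marker of short-lived effectors, had 15 UMIs in Thpok-deleted gated cells and 0 in both others. In each of the 3 the Thpok-deleted library was the highest, with no overlap of the intervals for Klrd1 and Klrc1. Nkg7, a cytotoxic granule protein, was already abundant with Thpok intact, at 660 and 619 CPM, and was at 2285 CPM without it (1.84 ± 0.14, edgeR adjusted p = 0.138). Ctsw, a cathepsin of cytotoxic lymphocytes, was at 295, 50.9 and 43.1 CPM. Prf1, the gene for the pore-forming protein perforin, had only 4, 0 and 3 UMIs and was not tested.

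Lineage genes of CD8 cells were higher at lower levels. Cd8b1, the CD8 beta chain, was at 111 CPM in Thpok-deleted gated cells (45 UMIs), 13.8 in Thpok-sufficient and 13.0 in wild type (3.04 ± 0.27, edgeR adjusted p = 0.189). Cd8a had 7 UMIs in Thpok-deleted gated cells and 0 in both others, under the count filter. Eomes, a T-box factor of cytotoxic and memory CD8 cells, was at 68.9, 3.57 and 1.19 CPM. Runx3, the factor that Thpok opposes, was at 157, 73.3 and 47.0 CPM (1.39 ± 0.34, edgeR adjusted p = 0.531), above both libraries but under 2-fold of the nearer one with 20 CPM added.

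Ccl5, Ctla2a and Klrd1 shared the lowest edgeR adjusted p. Ccl5 (chr11:83525778-83530518, minus strand) encodes the chemokine RANTES. It gave 2288 UMIs in 63 Thpok-deleted cells, 457 in 375 Thpok-sufficient cells and 437 in 393 wild type cells, or 5628, 233 and 173 CPM. The Thpok-deleted level was 24.2 times the Thpok-sufficient and 32.6 times the wild type level (log2 difference 4.79 ± 0.22, edgeR adjusted p = 0.051). Ctla2a, a cathepsin inhibitor of activated lymphocytes, was at 1045, 26.5 and 21.3 CPM (5.45 ± 0.21, edgeR adjusted p = 0.051). Ctla2b, its close copy, also passed the rule upward, and reads of the pair may be split between them.

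Of the 22 Th1 genes, 21 were tested, 4 were past the 2-fold rule upward, against the 0.674% of all genes, and 0 downward, with a median log2 difference of 0.81. By any size 15 of the 21 lay above both intact libraries, as did 37.3% of all genes. Besides Ccl5 these were Ccl4, a chemokine gene at 135, 14.8 and 1.98 CPM, Ly6c2, a surface marker of effector T cells at 1065, 131 and 223 CPM, and Id2, an inhibitor of E proteins at 435, 153 and 102 CPM. In all 4 the Thpok-deleted value was the highest. Not every Th1 gene lay higher. Ifng, the gene for interferon gamma, was at 121, 124 and 98.4 CPM, and Cxcr3, a chemokine receptor of Th1 cells, at 180, 254 and 296 CPM. Tbx21, which encodes T-bet, was at 46.7, 26.5 and 17.0 CPM on 19 Thpok-deleted UMIs, above both intact libraries but short of the rule.

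Lgals1 and Lgals3, for galectins of effector cells, were past the 2-fold rule upward as well. Lgals1 was at 4110 CPM in Thpok-deleted, 1977 in Thpok-sufficient and 1860 in wild type gated cells (1.10 ± 0.12, edgeR adjusted p = 0.226), and Lgals3 at 585, 201 and 196 CPM. Ccnd2, for the G1 cyclin D2, was at 182, 40.7 and 33.6 CPM. Ccr2, for an inflammatory chemokine receptor, had 22 UMIs in Thpok-deleted gated cells, against 3 in Thpok-sufficient and 2 in wild type cells.

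Helper genes were lower. Of the 11 genes on the CD4 helper list, 6 were past the 2-fold rule downward, against the 0.559% of all genes, and 0 upward. They were Zbtb7b, Cd4, Cd40lg, Icos, Tnfrsf4 and Tnfsf8, and the list's median log2 difference was -1.22 (-1.85 to -0.76 over the alternatives). By any size 10 of the 11 lay below both intact libraries, as did 41.8% of all genes. Tnfsf8 encodes CD30 ligand, a tumor necrosis factor family member of activated helper cells. It stood at 71.3 CPM (29 UMIs) in Thpok-deleted, 565 in Thpok-sufficient and 499 in wild type gated cells. The Thpok-deleted value was the lowest by far and the intact values lay close together (log2 difference -2.90 ± 0.22, edgeR adjusted p = 0.138). Cd40lg, the gene for CD40 ligand through which helper cells license B and dendritic cells, was at 27.1, 158 and 143 CPM (-2.47 ± 0.27, edgeR adjusted p = 0.201). The coreceptor gene Cd4 was at 83.6, 245 and 220 CPM, and the costimulator gene Icos at 305, 714 and 711 CPM. For both, the intervals of the Thpok-deleted library lay below those of the intact libraries. Tnfrsf4, which encodes Ox40 and whose regulatory sequence drives Cre here, was at 22.1, 143 and 380 CPM, and the intact libraries differed from each other.

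Tfh genes went the same way. The gate left out cells with a Cxcr5 UMI, but a cell without one may still express it. With thinned cells the Cxcr5-gated shares fell to 0.766% in Thpok-deleted, 8.94% in Thpok-sufficient and 11.1% in wild type. A Cxcr5 UMI was found in 16 of 107, 166 of 561 and 227 of 652 cells with Ccr7 in the same order. How many Tfh cells stayed in the gate of each library was not tested. Of 21 listed genes 18 were tested, 6 were past the 2-fold rule downward, against the 0.559% of all genes, and 0 upward. Their median log2 difference was -2.10 (-1.96 with genes at 0 UMIs set to their bound), and it lay between -2.38 and -0.78 over the alternatives. Izumo1r, which encodes folate receptor 4 and marks Tfh and regulatory cells, was at 14.8, 167 and 147 CPM (-3.40 ± 0.31, edgeR adjusted p = 0.189). Sostdc1, a secreted antagonist made by Tfh cells, had 0 UMIs in Thpok-deleted gated cells against 76.9 and 49.0 CPM, at least 6.64-fold lower. Tox2, a nuclear factor of Tfh cells, was at 2.46, 50.9 and 62.5 CPM and Maf, a transcription factor that drives interleukin 21, at 17.2, 86.1 and 69.2 CPM. Rgs10, a regulator of G protein signals, was at 78.7, 305 and 319 CPM. Slamf6, an adhesion receptor of Tfh and memory cells, was at 244, 516 and 493 CPM and did not pass the rule.

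Other genes past the rule downward were on none of these lists. Lpp, a focal adhesion protein gene, and Fam43a had 0 UMIs in Thpok-deleted gated cells and were at least 8.25-fold and 5.84-fold lower than the nearer intact library. Tesc was at 22.1, 113 and 113 CPM, and Tspan32, a tetraspanin of lymphocytes, at 34.4, 190 and 164 CPM.

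Memory and lymphoid homing genes gave no common direction. Of 23 listed genes 22 were tested. Past the 2-fold rule were 1 upward and 1 downward, against 0.674% and 0.559% of all genes. By any size 10 of the 22 lay above both intact libraries and 8 below both, against 37.3% and 41.8% of all genes. The median log2 difference was 0.08. The lower one was Tcf7, for TCF-1, the factor that keeps memory and stem-like T cells, at 221, 551 and 547 CPM (-1.31 ± 0.17, edgeR adjusted p = 0.292). The higher one was Il7r, at 39.4 CPM in Thpok-deleted, 8.15 in Thpok-sufficient and 7.91 in wild type gated cells, on 16, 16 and 20 UMIs (2.28 ± 0.39, edgeR adjusted p = 0.393). In gated cells with a Cd4 and no Cd8 UMI the Il7r difference was -0.055. The Thpok-deleted sum there was only 124005 UMIs, too few to tell whether a gene at this level differed. Lef1, a close relative of TCF-1, was at 165, 247 and 250 CPM, and Bcl2, an antiapoptotic gene, at 189, 286 and 295 CPM. Neither passed the rule, and each lay lower in the Thpok-deleted library. Id3, an inhibitor of E proteins tied to memory precursors, was at 44.3, 125 and 56.9 CPM and did not pass the rule. Klf2, which controls tissue exit, cannot be read here because the intact libraries were at 1093 and 40.7 CPM.

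The counts of the remaining lists stand beside 0.674% of all genes past the rule upward and 0.559% downward. Among 30 lineage transcription factors, Eomes and Id2 were past the rule upward and Zbtb7b, Tcf7, Ikzf2 and Maf downward. By any size 11 of the 30 lay above both intact libraries and 15 below both. Ikzf2, which encodes Helios, was at 36.9, 117 and 155 CPM. Of 8 tested inhibitory receptors, Lag3 (68.9, 18.8 and 13.0 CPM) and Cd160 (101, 27.5 and 24.5 CPM) were past it upward and Btla (9.84, 54.5 and 47.0 CPM) downward. Of 18 tested cytokine receptors, Il7r and Ifngr1, a chain of the interferon gamma receptor at 266, 64.7 and 108 CPM, were past it upward. The 14 apoptosis regulators, the 13 tested interferon response genes, the 10 tested T cell receptor response genes and the 20 cell cycle genes had 0 genes past the rule in either direction. Their median log2 differences were -0.31, -0.26, -0.53 and 0.30, and over the alternatives the sign of the interferon (-0.29 to 0.15) and cell cycle (-0.36 to 0.43) medians turned. Ifi27l2a, an interferon response gene, was at 1274, 2594 and 2387 CPM and Pcna, the DNA replication clamp, at 219, 103 and 68.8 CPM. Of 16 glycolysis genes only Slc2a3, a glucose transporter at 41.8, 10.2 and 7.51 CPM, passed the rule, upward. Of 10 tested dissociation stress genes only Fos, an early response gene at 36.9, 244 and 106 CPM, passed it, downward, and the median of that list was -0.79.

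The shares of cells with a UMI below are detection, not expression: free RNA also gives UMIs, no background share could be measured, and empty droplets of the Thpok-deleted library held Ccl5 at 10659 CPM. Ccl5 was found in 58 of 63 Thpok-deleted gated cells (92.1%), 31.7% of Thpok-sufficient and 36.1% of wild type ones. After thinning to 2000 UMIs, with 49, 224 and 284 cells left in the gate, the shares were 75.5%, 18.3% and 18.3%. The median gated cell held 12 Ccl5 UMIs in the Thpok-deleted library and 0 in both others, and the 6 Thpok-deleted cells with most Ccl5 held 42.6% of it. Nkg7 was found in every thinned Thpok-deleted cell (100%) and in 52.7% and 57.7% of the others. Gzmb was less even: 28 of 63 cells held it (44.4%, or 24.5% after thinning against 2.68% and 1.76%), and 6 cells held 59.7% of its UMIs. Thinned shares were lower in the Thpok-deleted library for Tcf7 (32.7% against 67.0% and 67.3%), Cd4 (10.2% against 37.1% and 40.8%) and Izumo1r (2.04% against 18.8% and 25.7%). The Slamf6 shares, 46.9% against 58.0% and 66.9%, had intervals that overlapped with both intact libraries.

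**Figure D3:**
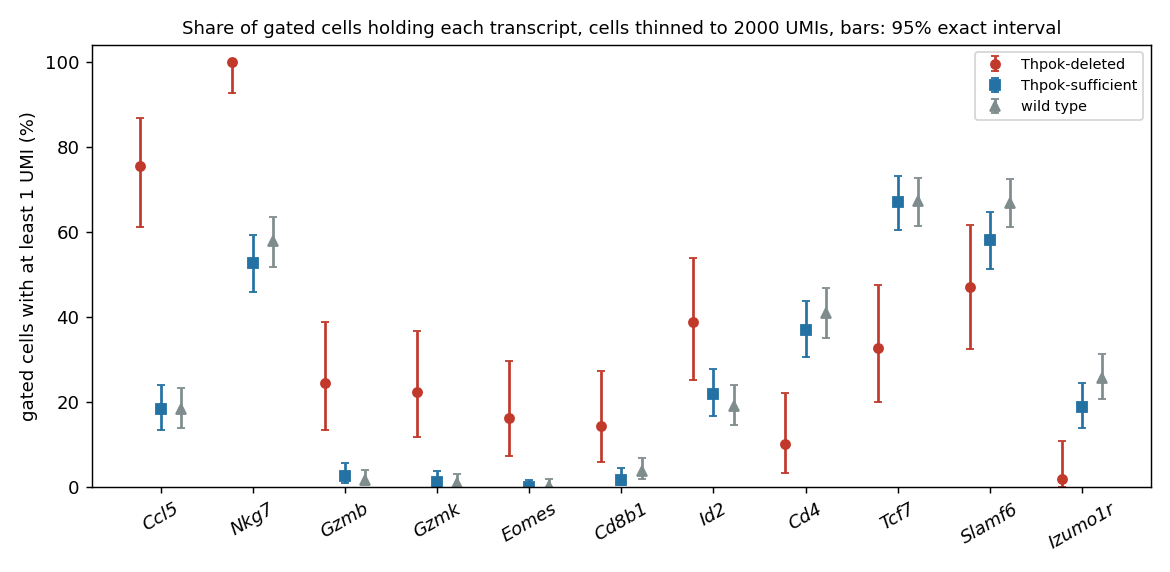
Share of gated cells (percent, y axis) with at least 1 UMI of each gene after thinning to 2000 UMIs, 1 point per library with its 95% exact binomial interval. Thpok-deleted points lie above both intact libraries for Ccl5, Nkg7, Gzmb, Gzmk, Eomes, Cd8b1 and Id2, and below both for Cd4, Tcf7, Slamf6 and Izumo1r. The Thpok-deleted interval overlaps that of wild type for Cd8b1, that of Thpok-sufficient for Id2 and those of both for Slamf6.

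UMIs of Tcf7 and Ccl5 were found in the same barcodes. Since free Ccl5 RNA can place UMIs in any droplet, these counts do not show that a cell expressed both. In the Thpok-deleted library 36 of 63 gated cells held UMIs of both, 3 held Tcf7 alone, 22 Ccl5 alone and 2 neither. In the Thpok-sufficient library 107 of 375 held both and 228 Tcf7 alone, and in wild type 133 of 393 and 226. Thpok-deleted gated cells with Tcf7 had 3752 CPM of Ccl5 and 242 of Gzmb (in CPM of the total), and those without it had 8622 and 874. Ctla2a (1107 and 900 CPM) and Nkg7 (2149 and 2431 CPM) were close between them.

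Cells with more Ccr7 had less of some of these transcripts. In the Thpok-deleted library Ccl5 was at 10691 CPM in cells with no UMI of the 3 receptors, 6721 in gated cells with 1 Ccr7 UMI and 2928 in those with 2 or more. Gzmb was at 1201, 632 and 126 CPM in the same order, while Nkg7 (2694, 2464 and 1782 CPM) and Ctla2a (780, 1035 and 1020 CPM) varied less. The 20 Thpok-deleted cells with 2 or more Ccr7 UMIs kept a log2 difference from the same cells of the intact libraries of 4.49 for Ccl5. Over the 14 alternatives the Ccl5 difference lay between 3.90, with the day 30 libraries added, and 5.02, without the Thpok-sufficient library. Each alternative uses the same day 7 Thpok-deleted library, so they are not repeated evidence. In cells with 2 or more Ccr7 UMIs the log2 difference was 2.09 for Gzmk, on 4 Thpok-deleted UMIs (edgeR adjusted p = 0.7). For Tcf7 it was -0.69 (edgeR adjusted p = 0.641).

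Free RNA and other cells were measured beside these results. In empty droplets (1 to 50 UMIs) of the Thpok-deleted library Ccl5 was at 10659, Nkg7 at 2629, Gzmb at 1386, Ctla2a at 1062 and Gzmk at 349 CPM, as high as or higher than in its gated cells. In those of the Thpok-sufficient library Ccl5 was at 1102 and Gzmb at 203 CPM. Ccr7, on which the gate rests, was at 16.9, 81.1 and 55.2 CPM in empty droplets of the Thpok-deleted, Thpok-sufficient and wild type libraries. Kept cells held 8861661 of the 9251719 UMIs in the Thpok-deleted library. With the empty-droplet profile taken off at 5% of the gated total the Ccl5 log2 difference was 4.99 (edgeR adjusted p = 0.0195). The differences were then 5.32 for Gzmb (edgeR adjusted p = 0.174) and 1.82 for Nkg7 (edgeR adjusted p = 0.106). No cell class known to lack these transcripts was identified in the GP66+ libraries, so the background share of cells was not measured, and larger amounts of free RNA were not tested.

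Cells with a Cd8a or Cd8b1 UMI made up 22 of 63 Thpok-deleted, 26 of 375 Thpok-sufficient and 32 of 393 wild type gated cells, and cells with a Cd4 UMI 22, 250 and 282. Without the cells with a Cd8 UMI the Ccl5 difference was 4.77 (edgeR adjusted p = 0.0205). The Gzmb difference was 4.96 (edgeR adjusted p = 0.164) and that of Nkg7 1.86 (edgeR adjusted p = 0.136). In cells with a Cd4 and no Cd8 UMI the Ccl5 difference was 5.01 (edgeR adjusted p = 0.035). There Gzmb differed by 5.37 (edgeR adjusted p = 0.357) and Nkg7 by 1.84 (edgeR adjusted p = 0.256). Few Thpok-deleted cells stand behind these values, since 7 of the 22 with a Cd4 UMI also held a Cd8 UMI. The differences were as large in cells without measured Cd8 transcripts, but among these genes edgeR called Ccl5 only. The 4 NK markers summed to 73.8, 5.60 and 5.14 CPM, nearly all of it Eomes in the Thpok-deleted library, with Ncr1 at 0 in all 3 and Klrb1c at 0 in Thpok-deleted. The 4 measured myeloid markers summed to 54.1, 17.3 and 14.2 CPM, with Csf1r and Fcer1g at 0 in Thpok-deleted. The other 2 carried the sum: Lyz2 was at 17.2, 1.53 and 0 CPM and Cd68 at 36.9, 14.3 and 14.2 CPM, and their part in the results was not tested. The 5 B cell markers summed to 7.38, 14.3 and 3.95 CPM, with Cd79a and Ms4a1 among those at 0 in Thpok-deleted. Doublets were not called, and without the 5% of gated cells with most UMIs the Ccl5 difference was 4.57 (edgeR adjusted p = 0.0104).

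A further comparison asked whether the effect of Thpok loss differed between receptor gates of the same libraries. Sums of Ccr7-gated, Cxcr6-gated and Cxcr5-gated cells from the 3 libraries were fitted together in edgeR, with the library as a block and 2 residual degrees of freedom, over 9814 genes. Still only 1 library lacked Thpok, so what is tested is a difference between gates within that library and the intact pair. The spread behind the p-values and SEs of this fit comes from the intact pair, moderated across genes. Even a very low p-value therefore does not measure how the gate differences would vary between Thpok-deleted libraries. Against the Cxcr6 gate, 61 genes (0.622%) had a higher Thpok-deleted to intact ratio in Ccr7-gated cells and 7 (0.0713%) a lower one. The cytotoxic list held 12 of the 61, of 19 members tested, and the Th1 list 7 of 22 tested. Against the Cxcr5 gate, which held 17 Thpok-deleted cells, 5 genes (0.0509%) had a higher and 14 (0.143%) a lower ratio. DESeq2 called 23 and 1 genes against the Cxcr6 gate, and with thinned cells edgeR called 16 and 4 there and 25 and 0 against the Cxcr5 gate.

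**Figure D4:**
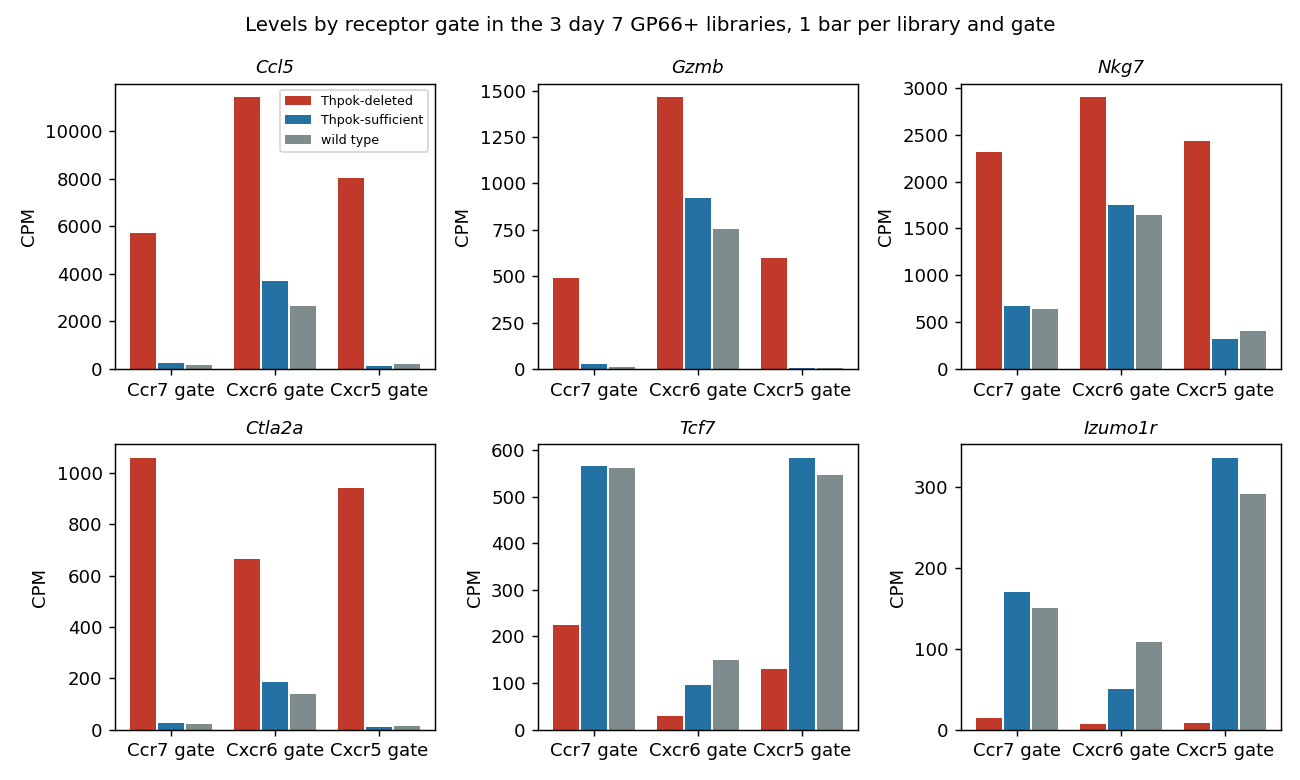
Levels in CPM (y axis, from 0) of 6 genes in the 3 receptor gates of each day 7 GP66+ library, 1 bar per library and gate. For Ccl5, Gzmb and Nkg7 the Cxcr6-gated cells of the intact libraries stand above their Ccr7-gated and Cxcr5-gated ones, and in every gate the Thpok-deleted bar is above both intact ones; for Gzmb its Ccr7-gated (488) and Cxcr5-gated (598) bars lie below the intact Cxcr6-gated ones (924 and 756).

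With Thpok intact the gates already differed in level. Ccl5, scaled over all gates, was at 5695 CPM in Thpok-deleted, 239 in Thpok-sufficient and 177 in wild type Ccr7-gated cells, and at 11425, 3715 and 2638 CPM in Cxcr6-gated cells. On the ratio scale the Ccr7 gate exceeded the Cxcr6 gate by 2.93 ± 0.19 in log2 (edgeR adjusted p = 2.8e-10), although the absolute level without Thpok was lower. For Gzmb the levels were 488, 28.7 and 8.93 CPM in the Ccr7 gate and 1465, 924 and 756 CPM in the Cxcr6 gate (3.97 ± 0.26, edgeR adjusted p = 2.8e-10). Ctla2a differed from Ccl5 and Gzmb in level: Thpok-deleted cells of the Ccr7 gate held 1058 CPM and those of the Cxcr6 gate 664 CPM (3.38 ± 0.20, edgeR adjusted p = 7.7e-11). For Lgals3 the Thpok-deleted value was not the highest in the Cxcr6 gate, at 884, 923 and 1000.0 CPM, against 592, 206 and 202 CPM in the Ccr7 gate (1.66 ± 0.15, edgeR adjusted p = 1.2e-07). There was no call between these gates for the helper gene Tnfsf8 (1.64 ± 0.51, edgeR adjusted p = 0.22), the memory gene Tcf7 or the Tfh gene Izumo1r: the difference was 0.77 ± 0.28 for Tcf7 (edgeR adjusted p = 0.368) and 0.22 ± 1.02 for Izumo1r (edgeR adjusted p = 0.969).

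Compared with the Cxcr5 gate the ratio of Nkg7 was lower in Ccr7-gated cells, by -0.93 ± 0.15 in log2 (edgeR adjusted p = 0.00546). Its levels in the Cxcr5 gate were 2432 CPM without Thpok and 316 and 400 CPM with it. Gzmb differed by -2.41 ± 0.48 (edgeR adjusted p = 0.0275), from Cxcr5 gate levels of 598, 2.38 and 5.04 CPM. Ccl5, at 8042, 132 and 204 CPM there, did not pass (-0.73 ± 0.22, edgeR adjusted p = 0.319). In gated and Cxcr5-gated cells alike, the Thpok-deleted library was the highest for all 3 genes.

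The same gate on the day 30 GP66+ libraries, from mice of the same Ox40-Cre+ genotypes, gave 108 of 725 Thpok-sufficient cells (14.9%) and 64 of 736 Thpok-deleted cells (8.70%). These cells were shallower, with medians of 2340 and 2916 UMIs. With 1 library per genotype there is no test. Of the 59 genes higher at day 7, 15 (25.4%) were at least 2-fold higher at day 30 and 1 lower, beside 2.08% of all genes higher. Of the 49 lower genes, 5 (10.2%) were at least 2-fold lower and 3 higher, beside 1.8% of all genes lower. Ccl5 was at 3991 CPM in Thpok-deleted and 717 in Thpok-sufficient gated cells at day 30, Ctla2a at 243 and 68.7, and Nkg7 at 742 and 378. Eomes was at 118 CPM (29 UMIs) in Thpok-deleted and at 0 UMIs in Thpok-sufficient cells, and Gzmb had 12 and 0 UMIs. Among helper genes Cd40lg was at 56.8 and 331 CPM and Icos at 333 and 863 CPM. Other genes were on the opposite side of their day 7 value: Izumo1r was at 418 and 137 CPM, Ikzf2 at 430 and 60.1, and Il7r at 158 and 412.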

How the data were processed

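Spleen T cells were profiled by droplet 3′ RNA sequencing with UMIs. Per the submitters' processing notes, bcl2fastq 2.17 and Cell Ranger were used with the mm10 genome; other settings are not stated in the labels. The deposited values are raw UMI counts per gene and barcode. A barcode counted as a cell from 500 detected genes upward, if its mitochondrial UMIs did not exceed 10%. No doublets were removed. Raw counts of gated cells were summed per library, since cells are not replicates. The sums were tested with edgeR 4.0.16 in R 4.3.3 (TMM scaling, filterByExpr, quasi-likelihood test, Benjamini-Hochberg), Thpok-deleted against the Thpok-sufficient and wild type libraries as 1 arm. The p-values of the Thpok test reflect how far apart the libraries lie, which can be technical in origin. Those of the test between gates rest on how alike the gate differences of both intact libraries are. The gate differences of the Thpok-deleted library have no replicate. A gene was higher or lower by the 2-fold rule when CPM plus 20 differed at least 2-fold from both intact libraries. The receptor genes were left out of all tests. Fold differences are log2 of Thpok-deleted over intact.

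The genes named were Zbtb7b, the gate genes, up to 6 members per list with the largest differences, up to 12 per direction by the 2-fold rule and up to 8 per direction for the gates with the smallest p. Members of lists named beyond this rule (Runx3, Prf1, Cd8a, Tbx21, Ifng, Cxcr3, Slamf6, Lef1, Bcl2, Klf2, Ccr2, Ccnd2 and Ctla2b among them) were chosen after their values were seen. The gated population and the gene lists were chosen with earlier results of these data known. Alternatives were DESeq2 1.42.0 as scaling and as test, other gates and cell filters, free RNA subtraction and leaving out each intact library. Python 3.11.15 with numpy 2.4.6, pandas 2.3.3 and scipy 1.17.1 made the sums. The models were also run on simulated data with a fixed spread, which differs from the spread fitted to the gated cells. That run does not show how well they recover changes here. Promoters came from RefSeq (GRCm38.p6) and gene coordinates from a GRCm38 annotation. Genes absent from the files used, such as Trac, were not analysed here. A few genes are left unreported.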

Additional observations from a re-analysis of the deposited data

Results flagged for a closer look

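For these genes the edgeR test of the difference between gates passed: the log2 ratio of Thpok-deleted to intact libraries in Ccr7-gated cells minus that in the other gate. Up to 8 genes per direction with the smallest p are given. Against Cxcr6-gated cells the difference was 3.97 for Gzmb, 3.38 for Ctla2a, 3.16 for the chemokine gene Ccl4, 2.93 for Ccl5, 1.66 for Lgals3, 1.31 for Id2, 1.04 for Nkg7 and 0.95 for Lgals1. On the lower side it was -0.89 for Rnaset2a (whose reads may be split with its copy Rnaset2b), -0.59 for Shisa5, -0.47 for Cotl1, -0.46 for Itm2b, -0.44 for Malat1, -0.34 for Actb and -0.32 for Rps27. Rps27 is among the genes in which the wild type library stood apart, at 258 CPM beside 7540 in Thpok-sufficient gated cells.

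Against Cxcr5-gated cells the difference was 0.96 for the glycolytic enzyme gene Pkm, 0.80 for Ptprc (CD45), 0.55 for Rps26, 0.43 for Rps15a and 0.39 for Eef1a1. It was -2.15 for the tubulin gene Tubb4b, -1.88 for the nuclear lamina gene Tmpo, -0.96 for Epsti1, -0.93 for Nkg7, -0.92 for the chromatin gene Hmgb2, -0.77 for Crip1, -0.59 for Hspa8 and -0.58 for Ms4a4b. The Thpok-deleted side of this comparison held 17 Cxcr5-gated cells. With cells thinned to 2000 UMIs the set of genes with a smaller ratio went from 14 to 0, and the direction turned for Tubb4b (5.99), Hmgb2 (0.68), Hspa8 (0.64) and Ms4a4b (0.18).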

How the results depend on the processing

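No paired analysis was possible because each day 7 GP66+ group is 1 library and the groups compared share only 1 replicate number. The edgeR test gave 0 genes in either direction with a UMI minimum per cell and with no filter. It called 3 genes higher with DESeq2 size factors, 3 with 2 or more Ccr7 UMIs, 28 with thinned cells, 2 with at most 5% mitochondrial UMIs, 5 without the deepest 5% of gated cells, 2 without cells with a Cd8 UMI, 2 in cells with Cd4 and no Cd8, 5 with free RNA taken off and 2 with the 5 GP66+ libraries and day as a term. It called 28 lower with thinned cells. DESeq2 called 20 higher and 3 lower. The 2-fold rule gave 96 higher and 244 lower in cells with Cd4 and no Cd8, 173 lower with 2 or more Ccr7 UMIs and 226 lower with thinned cells. A fold of 1.5 gave 218 and 240 genes, a fold of 3 gave 23 and 12, 5 CPM added gave 176 and 312, and 50 CPM added gave 28 and 14. Leaving out 1 intact library gave 73 (without wild type) to 188 (without Thpok-sufficient) higher and 79 to 88 lower. The cause of these shifts was not tested.

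Between gates, genes with a larger ratio than in Cxcr6-gated cells numbered 16 with thinned cells and 23 with DESeq2, and those with a smaller one 3 with DESeq2 size factors, 4 with thinned cells, 19 with no filter and 1 with DESeq2. Against Cxcr5-gated cells the larger set was 25 with thinned cells and 15 with no filter, and the smaller set 0 with thinned cells and 25 with no filter.

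Of 64 genes followed over 14 alternatives, 59 kept their sign wherever they could be fitted. The exceptions were Ifng (-0.17 with 2 or more Ccr7 UMIs, -0.010 with at most 5% mitochondrial UMIs, -0.079 with 5 libraries, and -0.044 to 0.29 leaving out 1 intact library), Il7r (-0.055 in cells with Cd4 and no Cd8) and Klf2 (-0.20 with 2 or more Ccr7 UMIs, -0.074 without Cd8 cells, -0.17 in cells with Cd4 and no Cd8, -0.27 with 5 libraries, and -0.86 to 3.88 leaving out 1 intact library). The others were Ikzf2 (0.26 with 5 libraries) and Cd3d (0.0074 with thinned cells). Against Cxcr5-gated cells, thinning turned Hmgb2 (0.68), Ms4a4b (0.18), Tubb4b (5.99) and Hspa8 (0.64). Ccl5 ranged from 3.90 to 5.02 in log2, Gzmb from 4.10 to 5.91 and Tcf7 from -1.76 to -0.69. List medians lay between 2.44 and 4.44 for the cytotoxic, -1.85 and -0.76 for the helper, 0.58 and 0.93 for the Th1 and -2.38 and -0.78 for the Tfh genes. The sign turned for the memory (-0.40 to 0.30), cytokine receptor (-0.32 to 0.29), inhibitory receptor (-1.56 to 0.36), interferon (-0.29 to 0.15), cell cycle (-0.36 to 0.43), glycolysis (-0.42 to 0.05) and lineage factor (-1.01 to 0.09) lists. The fit without gated cells with 3 or more cell cycle UMIs was not run, since it leaves 3 Thpok-deleted cells. With 63 Thpok-deleted cells, genes of a few CPM could not be compared.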
